A study of Rattus norvegicus with 50 samples.

Results

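Lung expression in rats that had inhaled nickel subsulfide (Ni3S2) at 0.60 mg/m3 was compared between 4 weeks and 1 week of exposure, directly and without the unexposed animals. The arrays were chosen by their titles, which name the concentration, the time and a replicate number, and they were 10 of the 50 arrays of the series. All 13438 genes reached by a probe set with exactly 1 gene symbol were tested. The comparison asks how expression differs between an early and a later stage of the same daily exposure.

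The animals were male Fischer 344 (CDF) rats, 7 to 8 weeks of age on receipt. Each daily exposure to the aerosol lasted 6 hours, and a week held 5 of them. A target of 0.60 mg/m3 Ni3S2 holds about 0.44 mg of nickel per m3, and the groups received 5 or 20 exposure days. Each group had 13 rats, of which 8 were kept for expression and nickel burden, and the 5 with the best RNA went on arrays, so n = 5 per group with 1 rat per array. Control rats breathed air without Ni3S2 for the same times, and rats given 0.15 mg/m3 (about 0.11 mg of nickel per m3) for 1 or 4 weeks are the closest lower concentration. RNA came from distal airway tissue of the right caudal lobe, a mixture of epithelial, stromal, vascular and immune cells. In such tissue, fewer cells of a type and less RNA per cell cannot be told apart. The 4-week rats were also older than the 1-week rats at the end of exposure, so exposure time, age and any difference in handling between the groups cannot be told apart within this comparison.

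Nickel subsulfide is a poorly soluble nickel compound that is deposited in the deep lung, dissolves slowly there and causes lung inflammation and, in long exposures, lung tumours in rats. Injured lung epithelium is replaced by dividing cells, whose genes for DNA synthesis and mitosis are switched on in sequence. Interferons act on cells through STAT proteins and IRF9, which bind a short DNA element upstream of interferon-induced genes, and recruited macrophages bring their own proteases, chemokines and lipid-handling proteins.

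Values are log2 intensities, so a difference of 1 is a doubling. A difference is given as 4 weeks minus 1 week, as log2 ± standard error of the limma model, and a gene was called higher or lower at an adjusted p under 0.05. The medians of the arrays were 5.44 to 5.50 at 1 week and 5.52 to 5.61 at 4 weeks. Correlations between arrays over all genes were at least 0.992 within the 1-week group and 0.995 within the 4-week group, and 0.973 to 0.985 between the groups. Markers of the labelled tissue were abundant: the alveolar type 2 cell gene Sftpc was at 13.53 and 13.61 and the club cell gene Scgb1a1 at 13.56 and 13.56 at 1 and 4 weeks, and neither was called. On the first principal component of all 50 arrays, which held 63.5% of the variance, the 1-week controls lay at -75.2 to -43.6. The 1-week arrays at 0.04 mg/m3 overlapped them, at -84.9 to -62.8, and so did those at 0.08 mg/m3, at -64.7 to 5.46. The 0.60 mg/m3 arrays lay at -2.51 to 5.59 at 1 week and at 35.3 to 40.9 at 4 weeks, and the 4-week controls at 28.5 to 35.3. Every statement about the controls between times rests on those 1-week controls, and the comparison with 0.15 mg/m3 does not use them. Of the 1-week arrays at 0.15 mg/m3, replicate 1 was the lowest in Cdk1, at 7.82 against 9.44 to 9.77 in the other 4.

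At 0.60 mg/m3, 7924 genes were called (59.0% of those tested), 2463 higher at 4 weeks (18.3%) and 5461 lower (40.6%). The median of all genes was -0.13, and differences are read against that shift. With every array centred on its own median the shift was -0.05, and the calls were 3012 higher (22.4%) and 4105 lower (30.5%), so that 42.3% of the calls were higher in place of 31.1%. Many of the differences were small. Calls with a difference of at least 1.5-fold numbered 2323, of which 1142 were higher and 1181 lower, and among those of at least 2-fold the direction was the opposite of that of all calls, with 484 higher and 139 lower. The 5 arrays of each time did not overlap in 1985 genes in which 4 weeks lay above (14.8%) and 4010 in which it lay below (29.8%).

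**Figure D1:**
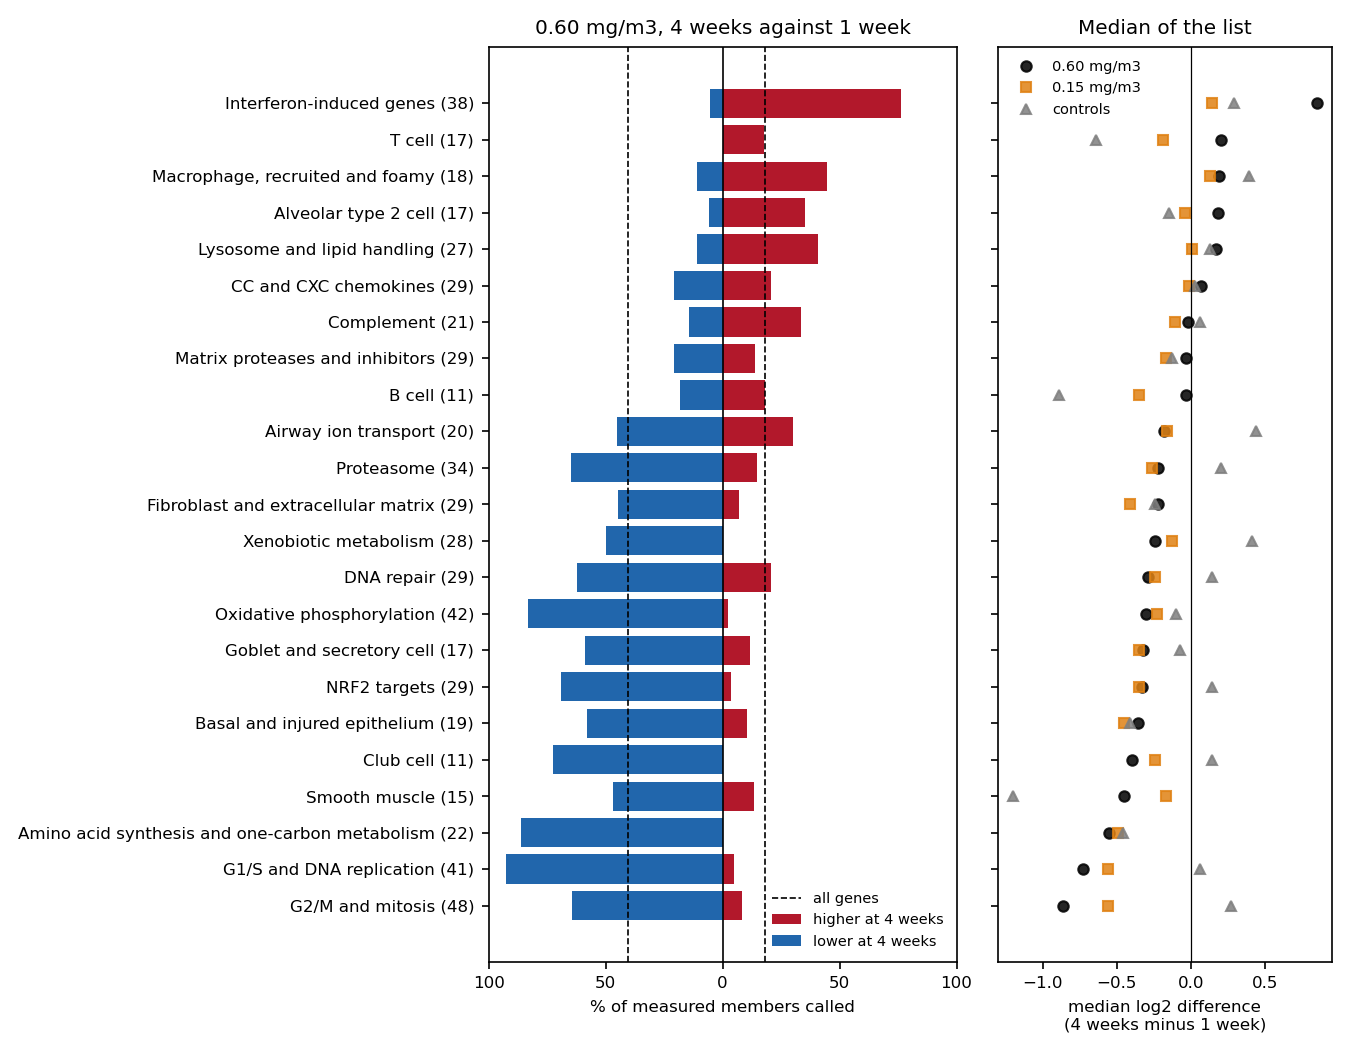
Members of 23 gene lists at 0.60 mg/m3: bars give the percent of measured members called higher (red) or lower (blue) at 4 weeks than at 1 week, dashed lines the same over all genes, and the right panel the median log2 difference of each list at 0.60 mg/m3, at 0.15 mg/m3 and in controls. Interferon-induced genes had the highest median (0.85) and the mitosis list the lowest (-0.86).

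Interferon-induced genes were the gene list with the highest median. Of 38 measured members 29 rose and 2 fell between 1 and 4 weeks, against 18.3% and 40.6% of all genes, and the median of the list was 0.85 against -0.13. The 2 that fell, named after their values were seen, were the exonuclease gene Isg20 (-0.42 ± 0.09, adjusted p = 0.00222) and the transcription factor gene Irf1 (-0.19 ± 0.08, adjusted p = 0.0463). The number lower was 1 with arrays centred and in 8 of the 10 leave-one-out fits. In 23 members all 5 arrays at 4 weeks lay above all 5 at 1 week, as in 14.8% of all genes. The mean log2 level over the 38 members was 7.12 to 7.41 in the 1-week arrays and 7.74 to 8.57 in the 4-week arrays, without overlap, beside 6.76 to 7.29 in all controls.

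The element that the interferon-activated factors bind, the ISRE, was searched as GAAA, any 2 bases and GAAA in a row, on both strands, in the 250 bases before the annotated start of each gene (RefSeq, GRCr8). It was present in 17 of the 30 members with a promoter sequence (56.7%) and in 3.29% of all 27457 promoters. Of the 22 members with a promoter that rose, 14 held it. The promoters of 3 genes among the largest rises are shown because they hold this element, with its letters, on either strand, in capitals. They lie at chr14:15988816-15989065 on the plus strand (Cxcl10), chr1:241527076-241527325 on the plus strand (Ifit3) and chr16:33208840-33209089 on the minus strand (Ddx60).
Cxcl10: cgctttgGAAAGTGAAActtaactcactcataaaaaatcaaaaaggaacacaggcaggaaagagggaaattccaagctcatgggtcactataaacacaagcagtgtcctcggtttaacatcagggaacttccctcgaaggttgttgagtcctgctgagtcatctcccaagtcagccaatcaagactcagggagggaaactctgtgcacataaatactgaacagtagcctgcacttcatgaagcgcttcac
Ifit3: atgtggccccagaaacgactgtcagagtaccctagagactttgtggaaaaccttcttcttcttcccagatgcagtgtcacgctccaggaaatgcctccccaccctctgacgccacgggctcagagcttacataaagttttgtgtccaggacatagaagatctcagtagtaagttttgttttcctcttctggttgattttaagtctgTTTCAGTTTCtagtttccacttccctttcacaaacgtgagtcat
Ddx60: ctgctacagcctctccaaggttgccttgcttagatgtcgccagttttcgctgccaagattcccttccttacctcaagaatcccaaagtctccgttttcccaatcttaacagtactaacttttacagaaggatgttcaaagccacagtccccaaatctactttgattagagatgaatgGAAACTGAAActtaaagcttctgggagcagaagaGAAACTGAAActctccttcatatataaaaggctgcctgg
Cxcl10 and Ifit3 hold 1 match each and Ddx60 holds 2. A match describes these letters only.

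Cxcl10 encodes a chemokine that draws activated T cells and NK cells. Its values at 1 week were 4.00, 4.68, 4.49, 4.11 and 4.23, and at 4 weeks 7.07, 7.07, 6.80, 5.67 and 7.42. All 4-week arrays lay above all 1-week arrays, and replicate 4 of the 4-week group was the lowest of them. Cxcl10 rose 5.67-fold (2.50 ± 0.27, adjusted p = 1.08e-05), beside group means of 3.78 and 4.06 in the controls. Cxcl11, a ligand of the same receptor, was at 4.04 to 4.16 at 1 week and at 6.77, 7.00, 6.44, 4.81 and 7.49 at 4 weeks. The same replicate 4 was lowest again, and the SD at 4 weeks was 1.02 against 0.05 at 1 week. Cxcl11 rose 5.37-fold (2.42 ± 0.37, adjusted p = 0.000142), and Cxcl9, the third ligand of that receptor, rose 3.17-fold (1.66 ± 0.16, adjusted p = 6.48e-06).

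Ifit3, whose product binds foreign RNA together with other IFIT proteins, was at 5.94, 6.72, 6.42, 6.03 and 5.86 at 1 week. At 4 weeks it was at 8.53, 8.50, 8.21, 7.42 and 9.01. The groups did not overlap, and Ifit3 rose 4.41-fold (2.14 ± 0.25, adjusted p = 2.17e-05). In controls Ifit3 also rose between the times (1.66, adjusted p = 2.9e-07), and the difference from the controls was not called (0.48 ± 0.32, adjusted p = 0.2). Ifit2 of the same family rose 4.04-fold, from 6.98 ± 0.34 to 9.0 ± 0.36 (SD; adjusted p = 4.6e-06).

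Ddx60, an interferon-induced RNA helicase, was at 6.10, 7.09, 6.79, 6.41 and 6.44 at 1 week and at 9.20, 9.16, 8.70, 8.88 and 9.59 at 4 weeks. The groups lay well apart, and Ddx60 rose 5.81-fold (2.54 ± 0.19, adjusted p = 2.06e-06). Its control means were 7.27 at 1 week and 7.82 at 4 weeks, above its mean of 6.57 at 1 week of 0.60 mg/m3. Samd9l, an interferon-induced antiviral factor, rose 5.03-fold, from 5.48 ± 0.38 to 7.81 ± 0.36 (SD; adjusted p = 2.95e-06). Its other probe set rose less (0.91). In controls Samd9l was at 6.68 at 1 week and 6.99 at 4 weeks, above its 1-week mean at 0.60 mg/m3. Usp18, the protease that removes ISG15 from proteins, was at 7.73, 8.01, 8.18, 7.49 and 7.67 at 1 week and at 9.50, 9.51, 9.44, 9.03 and 9.83 at 4 weeks. It did not overlap between the groups and rose 3.13-fold (1.65 ± 0.15, adjusted p = 4.33e-06). In the control groups Usp18 was at 7.36 at both times. Irf7, a master transcription factor of the interferon response, rose from 8.33 ± 0.21 to 9.71 ± 0.41 (SD; 1.39 ± 0.17, adjusted p = 3.1e-05).

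**Figure D2:**
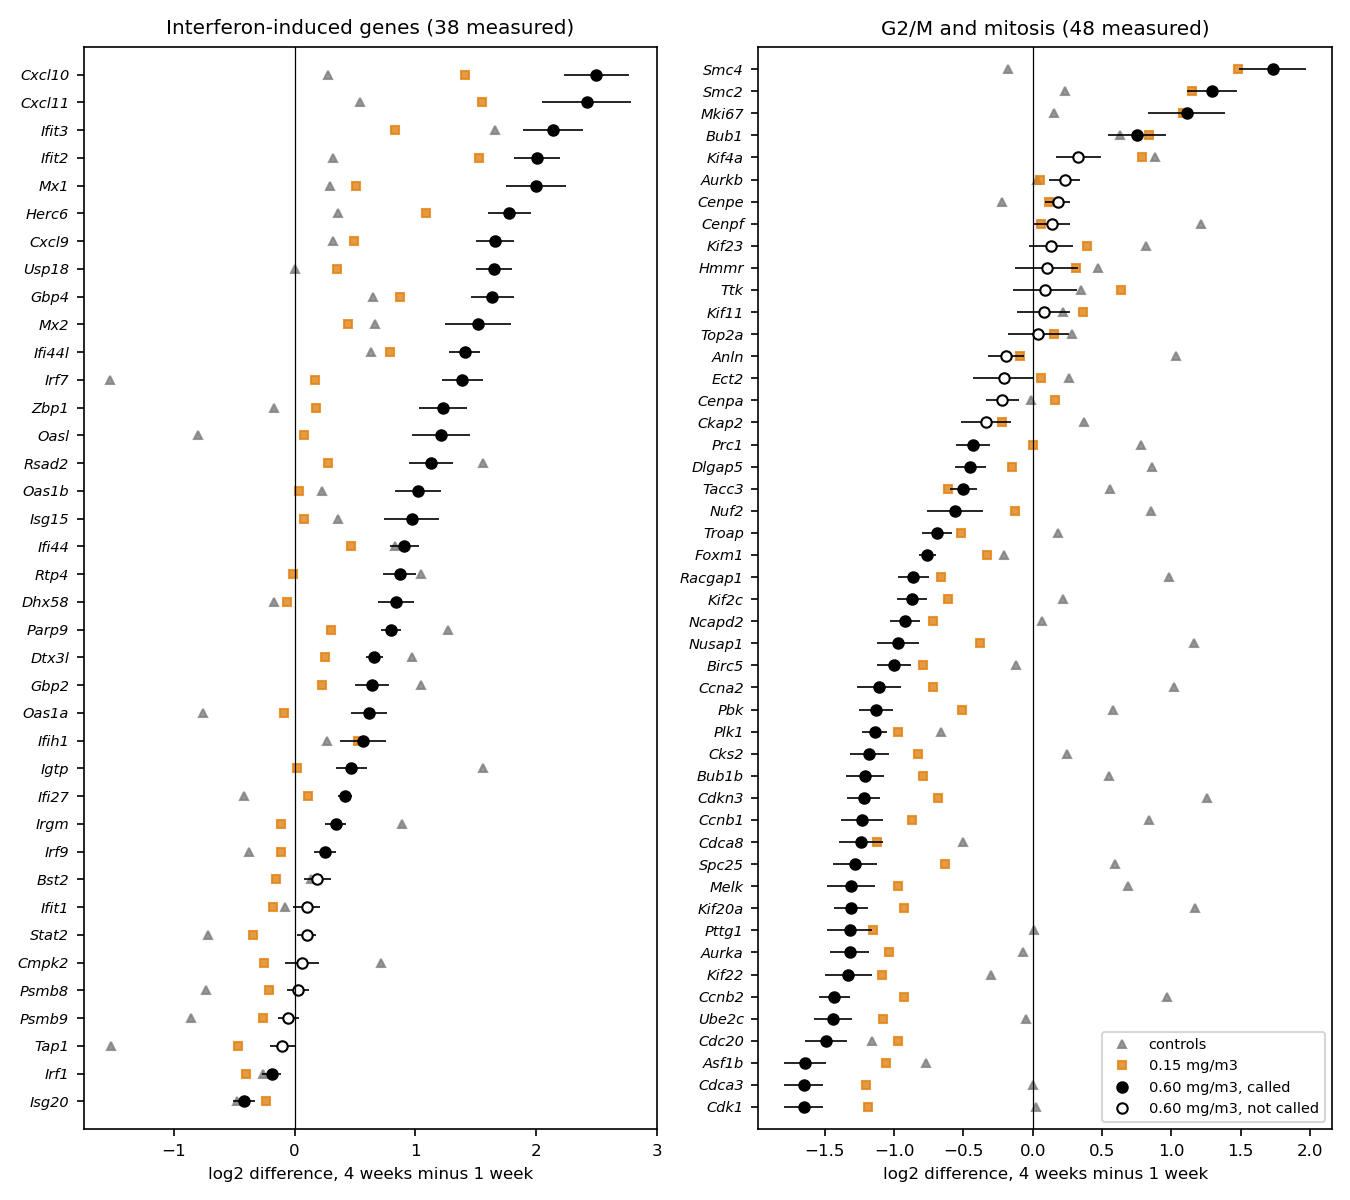
Difference between 4 weeks and 1 week for every measured member of the interferon and the mitosis lists, as log2 ± standard error at 0.60 mg/m3 (circles, filled where called), with the differences at 0.15 mg/m3 (squares) and in controls (triangles). Most interferon members lie right of 0 at 0.60 mg/m3, 29 of 38 called higher, and most mitosis members lie left of 0, 31 of 48 called lower. Of all genes 18.3% were called higher and 40.6% lower.

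Genes of myeloid cells held the largest rise. Lilrb4 encodes an inhibitory receptor of monocytes and macrophages. It was at 5.75, 6.20, 5.52, 5.33 and 5.83 at 1 week and at 9.20, 8.94, 9.49, 8.88 and 9.20 at 4 weeks. The groups lay far apart, and Lilrb4 rose 10.7-fold (3.41 ± 0.16, adjusted p = 1.91e-07). In controls Lilrb4 also rose, from 4.77 to 5.98 (1.21, adjusted p = 0.000165). The difference from controls was 2.21 ± 0.29 (adjusted p = 1.3e-06). Mmp12, the elastase of macrophages, was at 8.06, 8.23, 8.01, 7.57 and 8.29 at 1 week and at 10.47, 10.21, 10.94, 10.14 and 10.40 at 4 weeks. It rose 5.27-fold without overlap (2.40 ± 0.16, adjusted p = 1.37e-06). Spp1, which encodes osteopontin, was at 8.13, 7.97, 7.51, 7.13 and 7.91 at 1 week and at 9.56, 9.42, 10.06, 9.23 and 9.73 at 4 weeks. It rose 3.66-fold (1.87 ± 0.19, adjusted p = 7.87e-06).

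Other large rises fell in genes of blood-derived cells. Slfn4, a schlafen gene of myeloid cells, rose 5.99-fold, from 8.23 ± 0.43 to 10.81 ± 0.40 (SD; adjusted p = 3.08e-06). Its other probe set showed no such difference (-0.06, adjusted p = 0.533). In controls the mean of Slfn4 went from 8.20 at 1 week to 9.07 at 4 weeks. Rgs1, a regulator of chemokine receptor signalling in leukocytes, rose 4.29-fold (2.10 ± 0.15, adjusted p = 1.79e-06). Il7r, the interleukin 7 receptor chain, rose 3.92-fold (1.97 ± 0.19, adjusted p = 5.7e-06). Ptprc, which encodes the leukocyte antigen CD45 and was chosen after its values were seen, rose 3.52-fold (1.81 ± 0.16, adjusted p = 3.36e-06).

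The monocyte chemokine genes Ccl2 and Ccl7 rose together with these. Ccl2 was at 7.27, 8.26, 7.45, 7.77 and 7.71 at 1 week and at 9.22, 9.33, 9.60, 8.82 and 9.59 at 4 weeks. It rose 3.08-fold without overlap (1.62 ± 0.19, adjusted p = 1.66e-05), and Ccl7 rose 2.49-fold (1.32 ± 0.16, adjusted p = 2.43e-05). The chemokine list as a whole was mixed, with 6 of 29 members higher and 6 lower and a median of 0.07. These were 20.7% each, against 18.3% higher and 40.6% lower among all genes. With arrays centred, 10 were higher and 6 lower. Of 18 markers of recruited and foamy macrophages, 8 rose (44.4%) and 2 fell (11.1%, 0 with arrays centred), with a median of 0.19. In controls 10 of these markers rose and 6 fell, with a median of 0.39. The difference from controls was called above 0 in 7 and below 0 in 5, with a median of 0.07. Gpnmb, a transmembrane protein of lipid-laden macrophages, rose 2.11-fold (1.08 ± 0.15, adjusted p = 7.36e-05). Among 27 genes of lysosomes and lipid handling 11 rose and 3 fell (40.7% and 11.1%), with a median of 0.17. In controls 11 of them rose and 10 fell, with a median of 0.13. The difference from controls was called above 0 in 12 and below 0 in 6, with a median of 0.11. The cholesterol exporter gene Abca1 rose 2.78-fold (1.48 ± 0.13, adjusted p = 3.13e-06).

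**Figure D3:**
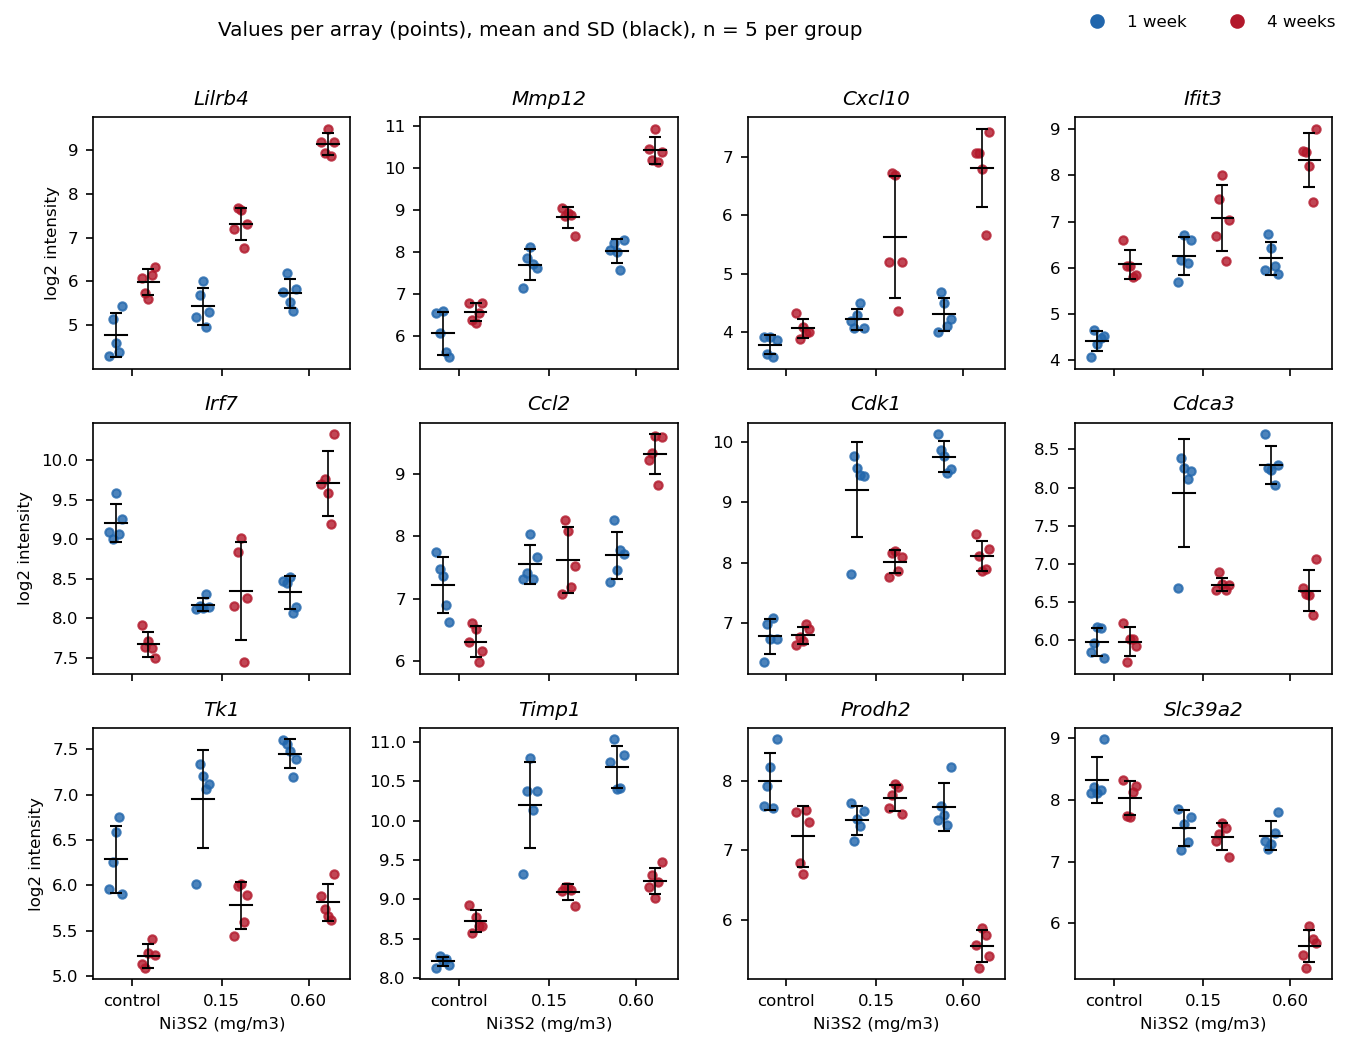
Log2 intensity of 12 genes in every array of the control, 0.15 mg/m3 and 0.60 mg/m3 groups at 1 week (blue) and 4 weeks (red), with the mean and SD of 5 arrays in black. Lilrb4, Mmp12, Cxcl10, Ifit3, Irf7 and Ccl2 were highest in the 4-week 0.60 mg/m3 group, and Cdk1, Cdca3, Tk1 and Timp1 in the 1-week 0.60 mg/m3 group.

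Genes of cell division moved the other way. Of 48 measured genes of the G2 phase and mitosis, 31 fell and 4 rose between 1 and 4 weeks (64.6% and 8.33%), with a median of -0.86. Of 41 genes of the G1/S transition and DNA replication, 38 fell and 2 rose (92.7% and 4.88%), with a median of -0.73. The number of these 41 that rose was 1 without replicate 3 of the 1-week group. Among all genes 40.6% fell and 18.3% rose. All 5 arrays at 4 weeks lay below all 5 at 1 week in 29 of the 48 and in 34 of the 41. Among all genes 29.8% did so. The mean log2 level over the mitosis list was 6.56 to 7.19 in the 1-week arrays and 6.04 to 6.47 in the 4-week arrays, beside 5.04 to 5.23 in the 1-week and 5.38 to 5.52 in the 4-week controls. Single members differed in this: Tk1 at 4 weeks had a mean of 5.81, below the 6.29 of the 1-week controls and above the 5.22 of the 4-week controls.

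Cdk1, the kinase that starts mitosis, was at 10.13, 9.87, 9.77, 9.49 and 9.55 at 1 week and at 8.48, 8.12, 7.86, 7.89 and 8.23 at 4 weeks. The groups did not overlap, and Cdk1 fell 3.14-fold (-1.65 ± 0.14, adjusted p = 3.08e-06). In controls it was at 6.78 ± 0.29 at 1 week and 6.80 ± 0.14 at 4 weeks (SD), below every 0.60 mg/m3 array. Cdca3, which promotes entry into mitosis, fell 3.13-fold, from 8.30 ± 0.25 to 6.65 ± 0.27 (SD; adjusted p = 3.11e-06). Tk1, the thymidine kinase of dividing cells, was at 7.60, 7.56, 7.48, 7.20 and 7.40 at 1 week and at 5.88, 5.74, 5.66, 5.62 and 6.12 at 4 weeks. It fell 3.12-fold without overlap (-1.64 ± 0.10, adjusted p = 1.28e-06), and it also fell in controls (-1.07, adjusted p = 2.04e-05). Other probe sets of Tk1 fell less (-1.47 and -0.50).

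The other genes of this kind with large falls serve chromatin assembly and replication. The histone chaperone gene Asf1b (-1.64 ± 0.15), the centromere gene Cenpw (-1.64 ± 0.13) and Ube2t, a ubiquitin-conjugating enzyme of DNA crosslink repair (-1.74 ± 0.17), all fell over 3-fold. The replication helicase gene Mcm5 fell 2.47-fold (-1.30 ± 0.14) and Cdt1, which loads that helicase, fell 2.39-fold (-1.26 ± 0.12). Rrm2, the ribonucleotide reductase subunit that limits DNA precursor supply, was at 9.95, 9.91, 9.62, 9.45 and 9.74 at 1 week and at 8.66, 8.45, 8.42, 8.17 and 8.75 at 4 weeks. It fell 2.37-fold (-1.24 ± 0.12, adjusted p = 5.88e-06), whereas in controls it rose from 5.90 to 7.25 (1.35, adjusted p = 6.62e-07).

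The 4 members of the mitosis list that rose, 3 of them named after their values were seen, were Smc4 (1.73 ± 0.24), Smc2 (1.29 ± 0.18), Mki67 (1.11 ± 0.28) and Bub1 (0.75 ± 0.21). Smc2 and Smc4 are the core subunits of condensin, Mki67 encodes the Ki-67 protein that coats mitotic chromosomes, and Bub1 is a kinase of the spindle checkpoint. Smc4 was at 5.48, 5.88, 5.09, 4.62 and 4.81 at 1 week and at 7.10, 7.30, 6.27, 6.95 and 6.93 at 4 weeks, without overlap. Its second probe set rose too (1.16, adjusted p = 5.02e-05 over all probe sets). All 4 genes also rose at 0.15 mg/m3, by 0.84 to 1.48 on the log2 scale. The mitosis list therefore held called genes of both directions at both concentrations.

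Promoters of mitotic genes often hold CCAAT boxes and a cell cycle homology region (CHR). CCAAT was present on either strand in the 250 bases upstream of 35 of 42 mitosis members with a promoter sequence (83.3%) and in 34.3% of all promoters. The CHR letters TTTGAA were present in 23 of 42 (54.8%) and in 16% of all promoters, and both in 52.4% of the members and 5.76% of all. Of the 26 members with a promoter that fell, 21 held CCAAT and 13 held TTTGAA, and of the 4 that rose, 3 held each. Promoters of the mitosis members with the largest falls are shown with these motifs in capitals, at chr20:19265043-19265292 on the plus strand (Cdk1) and chr4:159320953-159321202 on the plus strand (Cdca3).
Cdk1: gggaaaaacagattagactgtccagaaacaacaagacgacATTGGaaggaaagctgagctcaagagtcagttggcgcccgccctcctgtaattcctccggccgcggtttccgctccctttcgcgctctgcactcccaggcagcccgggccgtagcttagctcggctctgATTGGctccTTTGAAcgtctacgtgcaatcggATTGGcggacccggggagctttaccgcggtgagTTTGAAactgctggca
Cdca3: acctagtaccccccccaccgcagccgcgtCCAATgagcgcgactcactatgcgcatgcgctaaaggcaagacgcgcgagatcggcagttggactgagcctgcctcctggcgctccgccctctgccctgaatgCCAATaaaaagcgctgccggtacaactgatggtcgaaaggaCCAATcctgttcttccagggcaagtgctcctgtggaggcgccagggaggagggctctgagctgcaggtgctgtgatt
Cdk1 holds 3 matches to CCAAT and 2 to TTTGAA, and Cdca3 holds 3 and 0.

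Of 11 club cell markers 8 fell and 0 rose (72.7% lower, against 40.6% of all genes), with a median of -0.40. Of 14 markers of ciliated cells 4 fell and 2 rose (28.6% and 14.3%), with a median of -0.25. Lypd2, a member of the club cell list, was at 11.43, 11.07, 11.33, 11.11 and 10.88 at 1 week and at 10.37, 10.18, 9.83, 10.28 and 9.92 at 4 weeks. It fell 2.07-fold without overlap (-1.05 ± 0.13, adjusted p = 2.21e-05). Gsta3, a glutathione transferase, fell 1.83-fold (-0.87 ± 0.14, adjusted p = 0.000218), whereas it rose in controls (1.35). Of 28 genes of xenobiotic metabolism 14 fell (50%, near the share of all genes) and 0 rose, and the aldehyde dehydrogenase gene Aldh3a1 fell 2.52-fold (-1.34 ± 0.19, adjusted p = 9.15e-05). Of 29 targets of NRF2, the regulator of oxidant defence, 20 fell and 1 rose. The riser was Slc7a11, the cystine transporter (1.11 ± 0.19, adjusted p = 0.000365).

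Keratins of basal and injured epithelium were among the falls. Krt17 was at 6.31, 6.94, 6.80, 6.36 and 6.52 at 1 week and at 4.18, 4.81, 4.80, 4.50 and 5.02 at 4 weeks. It fell 3.79-fold without overlap (-1.92 ± 0.16, adjusted p = 3.05e-06). Krt14 fell 2.79-fold (-1.48 ± 0.23) and Krt5 2.38-fold (-1.25 ± 0.19), and all of these keratins also fell in controls (-2.85, -1.72 and -1.46). Of the 19 members of that list 11 fell and 2 rose (57.9% and 10.5%, against 40.6% and 18.3% of all genes). Lcn2, a member that encodes a siderophore-binding defence protein, rose 3.18-fold (1.67 ± 0.28, adjusted p = 0.000275).

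The largest fall of all was in Pla2g10. Pla2g10, a secreted phospholipase A2, was at 7.49, 7.35, 6.35, 6.33 and 6.89 at 1 week and at 4.80, 4.36, 4.37, 4.37 and 4.46 at 4 weeks. It fell 5.31-fold without overlap (-2.41 ± 0.21, adjusted p = 3.54e-06). Prodh2, a hydroxyproline dehydrogenase, was at 7.43, 7.63, 7.50, 7.36 and 8.20 at 1 week and at 5.64, 5.31, 5.88, 5.78 and 5.48 at 4 weeks. It fell 4.01-fold (-2.0 ± 0.15, adjusted p = 2.21e-06). Slc39a2, a zinc importer, was at 7.34, 7.21, 7.29, 7.46 and 7.81 at 1 week and at 5.49, 5.28, 5.96, 5.74 and 5.68 at 4 weeks. It fell 3.46-fold, again without overlap (-1.79 ± 0.13, adjusted p = 2.05e-06).

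Other large falls were Atp6v0a4, a proton pump subunit (-1.82 ± 0.32), Tmem213 (-1.78 ± 0.25) and the airway serine protease gene Prss22 (-1.77 ± 0.13). Ccno, a cyclin needed to form multiciliated cells, fell by 1.72 on the log2 scale and Hsd17b2, a steroid dehydrogenase, by 1.67. Atp6v0a4 varied most among the 1-week arrays, at 6.05, 7.44, 6.67, 6.17 and 7.90. Replicates 2 and 5 of that group were also the highest in Tmem213, at 7.04 and 7.59 against 6.28 to 6.68 in the others.

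Alveolar type 2 cell markers and ion transporters included rises. Of 17 type 2 cell markers 6 rose and 1 fell (35.3% and 5.88%, against 18.3% and 40.6% of all genes), with a median of 0.18. Lamp3, a protein of lamellar bodies, rose 2.21-fold, from 10.89 ± 0.20 to 12.03 ± 0.07 (SD; adjusted p = 2.29e-06), and rose as much in controls (1.07). Lpcat1, which makes surfactant phosphatidylcholine, rose 1.70-fold (0.77 ± 0.10, adjusted p = 3.82e-05). The airway ion transport list held 6 rises and 9 falls among 20 genes (30% and 45%, the falls near the share of all genes). The anion exchanger gene Slc26a4 was at 7.42, 8.05, 7.55, 7.54 and 8.22 at 1 week and at 9.13, 9.61, 9.95, 9.34 and 9.76 at 4 weeks, and rose 3.49-fold (1.80 ± 0.18, adjusted p = 7.13e-06). The amino acid transporter gene Slc6a14 rose 3.58-fold (1.84 ± 0.17) and the chloride channel gene Cftr 2.29-fold (1.20 ± 0.14). The glycerol channel gene Aqp3 fell 2.65-fold (-1.41 ± 0.20).

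The list of matrix proteases and inhibitors had 4 of 29 members higher and 6 lower (smaller shares than the 18.3% and 40.6% of all genes), with a median of -0.03. Mmp7, an epithelial metalloprotease, was at 3.41, 3.19, 3.50, 3.50 and 3.73 at 1 week and at 5.19, 4.87, 6.05, 4.77 and 5.28 at 4 weeks. It rose 3.40-fold without overlap (1.77 ± 0.20, adjusted p = 1.58e-05). Timp1, the secreted metalloprotease inhibitor, was at 10.75, 11.03, 10.40, 10.41 and 10.83 at 1 week and at 9.15, 9.31, 9.01, 9.22 and 9.47 at 4 weeks. It fell 2.74-fold (-1.46 ± 0.13, adjusted p = 3.31e-06), toward the control means of 8.21 at 1 week and 8.72 at 4 weeks. Of 15 smooth muscle markers 7 fell and 2 rose (46.7% and 13.3%, near the shares of all genes), and the intermediate filament gene Des fell 2.73-fold (-1.45 ± 0.22). Des fell in controls too (-2.95). Heart muscle markers, which can enter lung samples with the walls of large veins, were not counted as different at 0.60 mg/m3, with 1 of 16 higher and 0 lower. Without replicate 2 of the 4-week group 5 were lower, and their mean log2 level ran from 6.64 to 7.50 at 1 week and from 6.30 to 7.68 at 4 weeks.

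Transcripts of genes for energy and amino acid metabolism were lower at 4 weeks in small steps. Of 42 nuclear genes of oxidative phosphorylation 35 fell and 1 rose, with a median of -0.30. These were 83.3% and 2.38%, against 40.6% and 18.3% of all genes. In controls 18 of the 42 fell and 13 rose, with a median of -0.10. The complex III subunit gene Uqcrc1 fell 1.65-fold (-0.72 ± 0.08, adjusted p = 9.24e-06). The riser, named after its value was seen, was Uqcrc2 of the same complex (0.17 ± 0.06, adjusted p = 0.0323), and in 4 of the 10 leave-one-out fits 0 rose. Of 22 genes of amino acid synthesis and one-carbon metabolism 19 fell (86.4%) and 0 rose, with a median of -0.55. This list fell in controls as well, with 14 of the 22 lower, 5 higher and a median of -0.46. The difference from controls was called above 0 in 7 and below 0 in 5, with a median of 0.06. Gcat, which cleaves the threonine product to glycine, fell 1.89-fold (-0.91 ± 0.12), and Shmt2, the mitochondrial serine hydroxymethyltransferase, fell 1.69-fold (-0.76 ± 0.09). Psat1 of serine synthesis fell by 0.72 on the log2 scale, whereas it rose in controls (1.04).

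Of 20 metal binding and transport genes 4 rose and 8 fell (7 and 6 with arrays centred), shares close to the 18.3% and 40.6% of all genes. Slc39a8, an importer of zinc, manganese and other divalent metals, rose 2.52-fold (1.33 ± 0.13, adjusted p = 4.94e-06), and the copper exporter gene Atp7a rose 2.38-fold (1.25 ± 0.13, adjusted p = 7.08e-06). Both rose in controls as well (1.64 and 1.80). Hamp, which encodes the iron hormone hepcidin, was at 7.14, 7.67, 7.43, 7.20 and 6.66 at 1 week and at 5.37, 6.75, 4.72, 6.09 and 6.50 at 4 weeks. It fell (-1.33 ± 0.34, adjusted p = 0.00448), with replicate 2 of the 4-week group inside the 1-week range.

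Lymphocyte marker lists held few calls. Of 17 T cell markers 3 rose and 0 fell (17.6% and 0%, against 18.3% and 40.6% of all genes). The median of that list was 0.20, against -0.13 for all genes. With arrays centred 7 rose (22.4% of all genes did), and 5 rose without replicate 4 of the 4-week group. Trat1, a T cell receptor-associated adaptor, rose 2.53-fold (1.34 ± 0.17, adjusted p = 3.22e-05). Of 11 B cell markers 2 rose and 2 fell (18.2% each), with a median of -0.03. The number lower was 1 in 5 of the 10 leave-one-out fits. Cr2, the complement receptor of B cells and follicular dendritic cells, rose 2.33-fold (1.22 ± 0.21, adjusted p = 0.000296), and its other probe sets rose by 1.14, 0.70 and 0.58 on the log2 scale. Cxcl13, the chemokine that gathers B cells into follicles, was at 8.59, 8.75, 8.84, 8.50 and 8.34 at 1 week and at 9.49, 9.97, 9.35, 9.48 and 10.16 at 4 weeks. It rose 2.13-fold without overlap (1.09 ± 0.15, adjusted p = 7.55e-05). Jchain, which joins secreted IgA and IgM, rose 2.62-fold (1.39 ± 0.17, adjusted p = 3.1e-05).

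The same 2 times were compared at 0.15 mg/m3, in arrays that this comparison does not share. There 7508 genes were called (55.9%), 2184 higher (16.3%) and 5324 lower (39.6%). Of these calls 29.1% were higher, and 46% with arrays centred. Across genes, which are not independent replicates, the differences at the 2 concentrations had a Pearson correlation of 0.89 and a Spearman correlation of 0.835. Called in the same direction at both were 1860 higher and 4228 lower genes, 76.8% of the calls at 0.60 mg/m3 and 81.1% of those at 0.15 mg/m3, and 20 and 8 were called in opposite directions. The mitosis list had 25 of 48 members lower and 7 higher there, with a median of -0.56, and Cdk1 went from 9.21 ± 0.79 to 8.02 ± 0.19 (SD). Replicate 1 of that 1-week group was low in Cdk1 (7.82, the others 9.44 to 9.77) and Cdca3 (6.68, the others 8.11 to 8.39). The part of this array in the smaller median was not tested. The interferon list had 12 of 38 higher and 5 lower, with a median of 0.14. The difference between the concentrations had a median of 0.56 over the interferon list, and 2 members were called in it, Usp18 and, named after its value was seen, Parp9 (0.50, adjusted p = 0.0428).

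The test of the difference itself, the time difference at 0.60 mg/m3 minus that at 0.15 mg/m3, called 94 genes (0.700%), 59 above 0 (0.439%) and 35 below 0 (0.260%). This count moved with single arrays, from 28 without replicate 3 of the 1-week 0.60 mg/m3 group to 209 without replicate 4 of the 1-week 0.15 mg/m3 group. Of the 59 genes, 54 rose and 0 fell at 0.60 mg/m3, and 15 rose and 19 fell at 0.15 mg/m3. Of the 35, 30 fell and 0 rose at 0.60 mg/m3, and 6 fell and 11 rose at 0.15 mg/m3. Lilrb4 was the member of both the largest rises and this group whose call held in all 28 alternative fits (1.52 ± 0.28, adjusted p = 0.0144, range 0.00255 to 0.0382). It stood at 7.21, 7.68, 7.64, 6.77 and 7.32 after 4 weeks at 0.15 mg/m3, below all 4-week arrays at 0.60 mg/m3.

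Ccl7 (1.45 ± 0.26, adjusted p = 0.011) and Ccl2 (1.55 ± 0.32, adjusted p = 0.0281) had larger time differences at 0.60 than at 0.15 mg/m3. At 0.15 mg/m3 Ccl2 was at 7.55 ± 0.31 and 7.62 ± 0.53 (SD) at 1 and 4 weeks and was not called. The call of Ccl2 was lost in 8 of the 20 fits with 1 array left out (adjusted p up to 0.0668), and that of Ccl7 in the model of all 50 arrays (adjusted p = 0.108). Stra6l, a retinol transporter related to STRA6, was called at 1.32 ± 0.25 (adjusted p = 0.0197, and 0.0514 without replicate 3 of the 1-week 0.60 mg/m3 group). Mmp12 was called at 1.27 ± 0.25 (adjusted p = 0.0234, and up to 0.209 in the alternatives, lost in 3 of 28). Usp18 was called at 1.30 ± 0.30 with an adjusted p of 0.0493, which was above 0.05 in 16 of the 20 fits with 1 array left out.

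**Figure D4:**
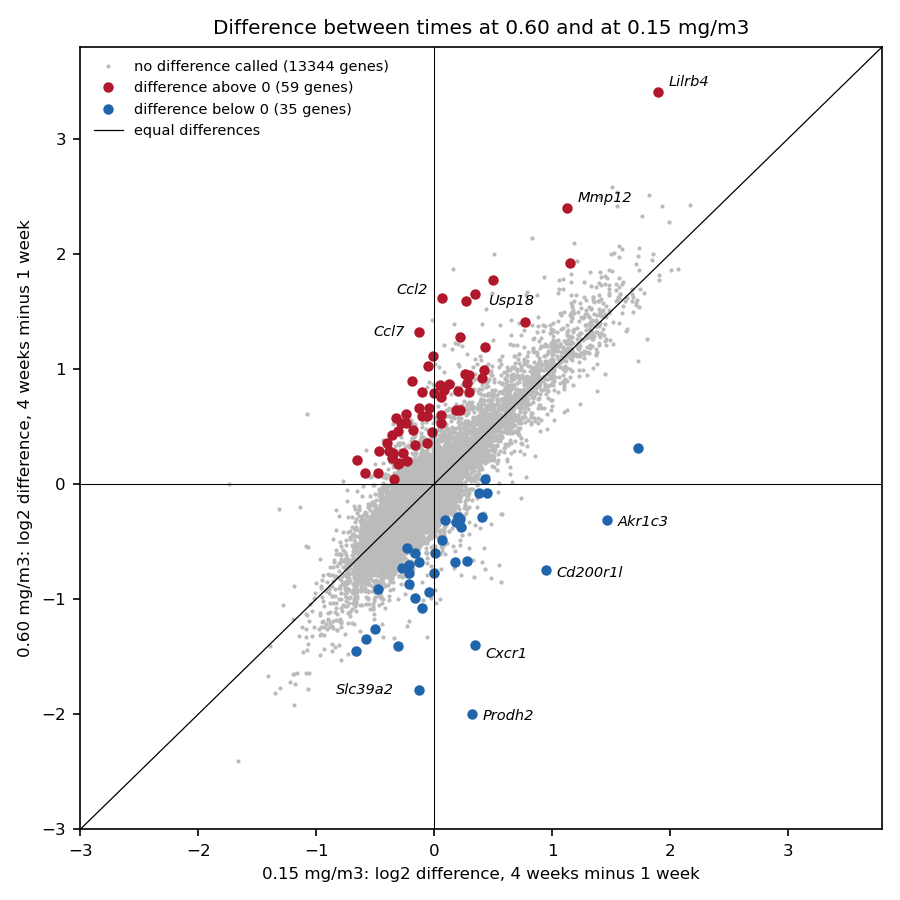
Each gene's log2 difference between 4 weeks and 1 week at 0.60 mg/m3 (vertical) against that at 0.15 mg/m3 (horizontal), with genes called in the test of the difference in red (59 above 0) and blue (35 below 0) and the line of equal differences. Lilrb4 lies highest, and Prodh2, Slc39a2 and Cxcr1 lie below 0 at 0.60 mg/m3. At 0.15 mg/m3 Prodh2 (0.32) and Cxcr1 (0.35) were called higher and Slc39a2 (-0.13) was not called.

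Among the 35 genes below 0, Prodh2 had the largest difference (-2.33 ± 0.20, adjusted p = 3.11e-06). At 0.15 mg/m3 it was at 7.43 ± 0.21 at 1 week and 7.75 ± 0.19 at 4 weeks (SD), where it rose (0.32, adjusted p = 0.0254). Slc39a2 differed by -1.66 ± 0.21 (adjusted p = 0.000426) and was not called at 0.15 mg/m3, at 7.54 and 7.40. Cxcr1, an interleukin 8 receptor gene of neutrophils, was at 5.27, 5.74, 5.51, 5.93 and 6.68 at 1 week and at 4.26, 4.21, 5.00, 4.49 and 4.16 at 4 weeks of 0.60 mg/m3. It fell 2.64-fold there (-1.40 ± 0.24, adjusted p = 0.000283) and rose at 0.15 mg/m3 (0.35, adjusted p = 0.0191), with a difference of -1.75 ± 0.28 (adjusted p = 0.00348). Cd200r1l, a CD200 receptor-like gene, fell at 0.60 mg/m3 and rose at 0.15 mg/m3 (-0.75 and 0.95, difference -1.69 ± 0.19). Akr1c3, an aldo-keto reductase, rose at 0.15 mg/m3 (1.47) and was not called at 0.60 mg/m3 (-0.31, adjusted p = 0.137). These 5 calls held in every alternative fit in which the gene was tested.

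In the controls, measured the same way, 10018 genes were called between the times (74.5%), 4807 higher (35.8%) and 5211 lower (38.8%). Across genes the differences had a Pearson correlation of 0.542 and a Spearman correlation of 0.623 with those at 0.60 mg/m3. Called in the same direction in both were 2011 higher and 3708 lower genes, 72.2% of the calls at 0.60 mg/m3 and 57.1% of those in controls, while 105 rose at 0.60 mg/m3 and fell in controls and 866 did the reverse. The largest control differences included Hars1, a tRNA synthetase gene (2.61), Fgg, the fibrinogen gamma chain gene (2.2), and Ccl19, a chemokine gene of lymphoid tissue (-3.53). Hars1, for example, was at 4.89 in the 1-week controls and between 7.09 and 7.60 in the control group of 4 weeks and in the 0.15 and 0.60 mg/m3 groups.

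The time difference at 0.60 mg/m3 minus that in controls was called in 8153 genes (60.7%), 4038 above 0 (30.0%) and 4115 below 0 (30.6%). The mitosis list had 35 of 48 members below 0 and 4 above, with a median of -1.05. In controls 25 of its members rose and 7 fell. The interferon list had 22 members above 0 and 5 below, with a median of 0.78. Irf7 rose at 0.60 mg/m3 and fell in controls, from 9.20 to 7.67, a difference of 2.91 ± 0.22 (adjusted p = 1.83e-09). At 1 week the controls, at 9.0 to 9.59, lay above the exposed arrays at 8.06 to 8.52, and at 4 weeks the exposed arrays, at 9.19 to 10.33, lay above the controls at 7.49 to 7.91. Dusp2, a MAP kinase phosphatase gene of activated leukocytes (2.68 ± 0.31), Zfp654 (2.65 ± 0.26) and B3gnt5, a glycosyltransferase gene (2.60 ± 0.48), also rose at 0.60 mg/m3 and fell in controls. Cxcr1 did the reverse (-3.04 ± 0.36, adjusted p = 4.04e-07).

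The lymphocyte lists stood out in this difference. Of 17 T cell markers 12 were above 0 and 0 below, with a median of 0.91, and of 11 B cell markers 9 were above 0 and 0 below, with a median of 1.12. In controls 11 T cell markers and 9 B cell markers fell between the times and 0 rose. At 0.60 mg/m3 the mean log2 level of the T cell list was 5.78 to 6.07 at 1 week and 5.89 to 6.45 at 4 weeks, beside 5.82 to 6.66 and 5.50 to 5.74 in the controls. The 1-week controls also differed in smooth muscle markers from the 4-week controls and from the 0.15 and 0.60 mg/m3 groups. The mean level of that list was 8.08 to 8.60 in them against 7.32 to 7.85 in the 1-week 0.60 mg/m3 arrays. Their part in these differences was not tested.

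Called genes were ordered by the length of the gene. Gene lengths were taken from RefSeq (GRCr8) for 13377 genes (99.5%). With the genes cut by length into 5 bins of equal size, 5.68% of those in the shortest bin were higher at 4 weeks and 54% lower, and in the longest bin 32.3% were higher and 19% lower. The median difference went from -0.24 in the shortest bin to 0.02 in the longest. The median length was 45.1 kb for genes that rose, 14.8 kb for genes that fell and 22.3 kb for all. The same order was seen at 0.15 mg/m3 (4.11% to 29.8% higher) and in controls (15.2% to 52.9%). The difference between 0.60 and 0.15 mg/m3 had a median of -0.06 in the shortest bin and 0.03 in the longest. The 59 genes above 0 in that difference made up 0.411% of the shortest and 0.523% of the longest bin, and the 35 below 0 made up 0.448% and 0.187%.

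**Figure D5:**
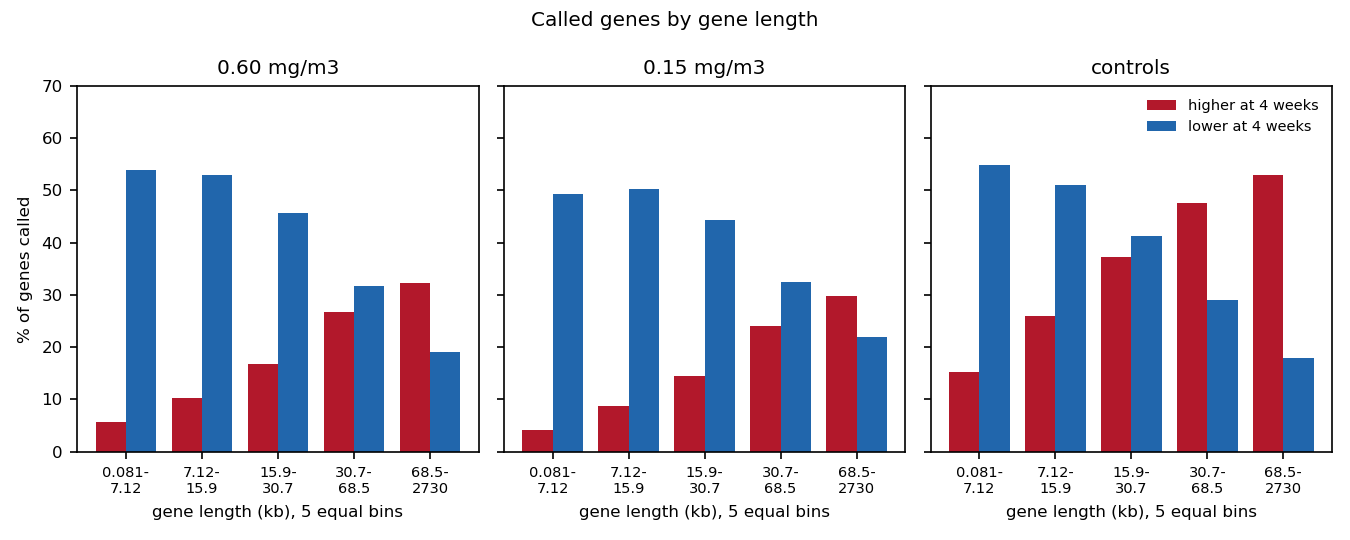
Percent of genes called higher (red) or lower (blue) at 4 weeks than at 1 week, in 5 bins of gene length in kb, at 0.60 mg/m3, at 0.15 mg/m3 and in controls. In all 3 panels the share called higher is lowest in the shortest bin and highest in the longest, from 5.68% to 32.3% at 0.60 mg/m3.

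The 15 largest rises also held 6 genes not yet described. Osbpl8, a lipid transfer protein gene, was at 7.70, 8.33, 7.54, 7.69 and 7.55 at 1 week and at 10.22, 10.34, 10.30, 10.23 and 10.25 at 4 weeks. It rose 5.69-fold without overlap (2.51 ± 0.13, adjusted p = 3.56e-07). The chromatin remodeller gene Atrx rose 5.35-fold (2.42 ± 0.21; 1.19 in another probe set), the forkhead factor gene Foxp2 4.86-fold (2.28 ± 0.16) and the bromodomain gene Phip 4.20-fold (2.07 ± 0.17). The zinc finger genes Zfp729b and Zbtb41 rose 5.39-fold (2.43 ± 0.14) and 4.14-fold (2.05 ± 0.19). At 0.15 mg/m3 these 6 genes rose as well, by 1.57 to 2.17 on the log2 scale. In none of them was the difference between the concentrations called. At 1 week of 0.60 mg/m3 the means of all 6 lay below both control means, and at 4 weeks above both. Foxp2 was at 5.07 and 7.35, beside 6.77 and 7.14 in the 1-week and 4-week controls. Osbpl8 was at 7.76 and 10.27, beside 8.75 and 8.63. Of 184 genes with symbols starting with Zfp, a family chosen after its values were seen, 76 were higher (41.3%) and 44 lower (23.9%) at 0.60 mg/m3, against 18.3% and 40.6% of all genes. The interferon members, of which 29 of 38 rose, had a median length of 10.7 kb, in a length bin of which 10.2% rose. The oxidative phosphorylation members, of which 35 of 42 fell, had a median length of 7.41 kb. In their length bin 52.9% fell, with a median of -0.23 beside -0.30 for the list. For the amino acid list, of which 19 of 22 fell, the median length was 27.5 kb, and 45.6% of that bin fell.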

How the data were processed

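Expression was measured on 1 array per rat. The deposited log2 values were made by the authors with RMA, and Partek is named beside it, per the submitters' processing notes. For software versions, scan dates and whether all arrays were normalised together: not given in the sources used here. Of 31042 probe sets, 19063 had exactly 1 gene symbol and 572 several. The probe set with the highest mean over the 50 arrays stood for each of 13438 genes. Differences were fitted with limma 3.58.1 (R 4.3.3) on the 10 arrays of a comparison, or on 20 for a difference between comparisons, with two-sided tests, Benjamini-Hochberg adjustment over all genes and a threshold of 0.05. The code was tested on simulated data. RMA values carry no detection calls, and 5 arrays per group limit the precision. The p-values set a difference against the spread between the animals within the groups. They do not cover differences in age or handling between the groups.

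The members and gene lists were chosen with earlier results of these data known, and which lists to describe was decided after their values were seen. Genes were named by rule, leaving out symbols that start with LOC or RGD: for genes that were called and did not overlap between the groups, the top 15 by size in each direction, 5 in each direction for each difference between comparisons and for controls, 5 that moved oppositely in controls, and at most 4 called genes from any list. Others are said to be chosen after their values were seen, or are markers or members of the same family set beside a named gene. Alternatives changed the arrays modelled, the probe set rule, a filter on the dimmest 25% of genes, the scaling, the variance model, array weights, a minimum fold, the replicate block and each array left out.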

Additional observations from a re-analysis of the deposited data

Results flagged for a closer look

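Among 262 named genes, 524 sets of 5 arrays at 0.60 mg/m3 were searched for a single array lying far from the other 4, and 23 were found (4.39%). Chance alone gives about 1 in 20 such sets. Replicate 2 of the 1-week group accounted for 7 of them. Replicate 1 of the 1-week group was low in Ndn (7.05, nearest 7.29). Replicate 2 of the 1-week group was high in Abca1 (6.68, nearest 6.19), Atrx (4.83, nearest 4.01), Calcrl (5.40, nearest 4.98), Myoz2 (8.09, nearest 7.41), Osbpl8 (8.33, nearest 7.70), Pla2g2a (9.12, nearest 8.76) and Samd9l (6.13, nearest 5.40). Replicate 4 of the 1-week group was low in Pkm (9.53, nearest 9.80). Replicate 5 of the 1-week group was high in Alas2 (7.74, nearest 7.04), Cd200r1l (4.68, nearest 3.98) and Ramp2 (10.75, nearest 10.48). Replicate 1 of the 4-week group was high in Pla2g10 (4.80, nearest 4.46) and low in Actg2 (7.53, nearest 8.27) and Hspb8 (7.61, nearest 8.00). Replicate 3 of the 4-week group was high in Klf1 (4.51, nearest 4.17) and Olr1 (3.96, nearest 3.71). Replicate 4 of the 4-week group was high in Kdm4c (4.62, nearest 4.39) and Myl1 (3.67, nearest 3.44) and low in Ahsp (3.77, nearest 4.08). Replicate 5 of the 4-week group was high in Asf1b (4.33, nearest 3.88), Nr4a1 (5.80, nearest 5.67) and Prf1 (8.07, nearest 7.82).

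The time difference itself differed between groups of rats in other genes, by the limma test of that difference. At 0.60 mg/m3 minus controls, the log2 differences above 0 were Ccl19 3.0 (adjusted p = 3.92e-06), Irf7 2.91 (adjusted p = 1.83e-09), Ptges 2.72 (adjusted p = 3.62e-08), Dusp2 2.68 (adjusted p = 3.71e-07) and Zfp654 2.65 (adjusted p = 4.57e-08). Those below 0 were Cxcr1 -3.04 (adjusted p = 4.04e-07), Hars1 -2.83 (adjusted p = 2.63e-10), Rrm2 -2.59 (adjusted p = 1.2e-09), Myoz2 -2.53 (adjusted p = 0.00665) and Gzma -2.48 (adjusted p = 4.92e-06). At 0.60 minus 0.15 mg/m3, the log2 differences above 0 were Ccl2 1.55 (adjusted p = 0.0281), Lilrb4 1.52 (adjusted p = 0.0144), Ccl7 1.45 (adjusted p = 0.011), Stra6l 1.32 (adjusted p = 0.0197) and Usp18 1.30 (adjusted p = 0.0493). Those below 0 were Prodh2 -2.33 (adjusted p = 3.11e-06), Akr1c3 -1.78 (adjusted p = 0.00348), Cxcr1 -1.75 (adjusted p = 0.00348), Cd200r1l -1.69 (adjusted p = 0.000132) and Slc39a2 -1.66 (adjusted p = 0.000426). The differences from controls rest on the 1-week controls. On the first principal component these lay apart from the 4-week controls and from the 0.15 and 0.60 mg/m3 groups.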

How the results depend on the processing

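The counts of called genes at 0.60 mg/m3 stayed within 1.5 times the reported count in every alternative except a minimum of 1.5-fold, which left 2323. That minimum left 5216 genes for the difference from controls and 1528 at 0.15 mg/m3. Leaving out 1 array gave 7378 to 7835 genes at 0.60 mg/m3, 9712 to 10020 in controls, 7920 to 8313 for the difference from controls and 6911 to 7585 at 0.15 mg/m3. The count of 94 for the difference between 0.60 and 0.15 mg/m3 was the least stable: it was 29 in a model of all 50 arrays, 375 with array weights and 144 with all probe sets tested apart, and the cause was not tested. Leaving out 1 array gave 28 to 209 genes there. At 0.60 mg/m3 it was 51, 62 and 28 without replicates 1, 2 and 3 of the 1-week group, and 55 and 37 without replicates 3 and 5 of the 4-week group. At 0.15 mg/m3 it was 36, 35, 209 and 48 without replicates 2, 3, 4 and 5 of the 1-week group, and 36 and 45 without replicates 1 and 5 of the 4-week group. With the replicate block the counts were 8068 at 0.60 mg/m3, 9740 in controls, 8118 and 67 for the differences from controls and from 0.15 mg/m3, and 7157 at 0.15 mg/m3. Deviations of same-numbered arrays at 0.60 mg/m3 correlated at 0.37, 0.20, -0.07, 0.19 and 0.14, and 3 of 5 matched their own number best, so the numbers were not taken to pair the rats. Of 4390 refits of named genes at 0.60 mg/m3, 4323 kept direction and call, 64 lost the call, 3 gained it and 0 changed direction. Of 2232 recounts of list members 188 moved by over 1.5 times. Array signals near background limit what can be said of dim genes.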

Other observations

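Other gene lists at 0.60 mg/m3 also held more falls than rises. Of 34 proteasome genes 22 fell and 5 rose between 1 and 4 weeks, and of 29 DNA repair genes 18 fell and 6 rose. Of 18 targets of p53, the damage-activated transcription factor, 9 fell and 2 rose, and Cdkn1a, the inhibitor of cyclin-dependent kinases, fell by 1.02 on the log2 scale. Of 13 markers of NK and cytotoxic cells 7 fell and 2 rose. The complement list went the other way, with 7 of 21 higher and 3 lower. Over all genes 18.3% rose and 40.6% fell.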
